A study of Mus musculus with 8 samples.

Results

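The comparison described here follows the Cd73-positive cells of the mouse retina (Cd73PC) from postnatal day (P) 2 to P5. Cells of pooled retinas were stained with an antibody to Cd73, sorted by flow cytometry, and sequenced after random-primed cDNA synthesis, with 1 library at P2 and 1 library at P5. Both libraries came from mice of the background strain slc:ICR, and the labels name no allele and no treatment. The series holds 8 libraries in all, the other 6 being whole retina at embryonic day (E) 15 and E18, Cd73PC at P8, and the Cd73-negative cells (Cd73NC) at P2, P5, and P8. Expression is given as FPKM, a fragment count scaled to transcript length and to library size. Of 23021 gene entries in each deposited table, 797 entries of small RNAs were left out, 13 had a failed estimate at P2 or P5, and 10262 were below FPKM 1 on both days, which left 11949 entries to compare. An entry below FPKM 1 on only 1 day passed this filter through the other day, so it could only be higher on that other day. There are no replicates, so differences could not be set against a replicate error and no test was made. "Rose" and "fell" below mean a change of at least 1.5-fold in FPKM + 1, and log2 ratios are of FPKM + 1 at P5 over P2.

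Rods are the photoreceptors of dim light vision and the most abundant neurons of the mouse retina. They leave the cell cycle over a long period around birth, and in the first postnatal weeks they build the phototransduction cascade, the stacked membrane discs of the outer segment, and a ribbon synapse. Cd73, encoded by Nt5e, is a surface enzyme that makes adenosine from AMP and appears on rod precursors before the outer segment forms. In phototransduction, the light-activated visual pigment switches on the G protein transducin, which releases the phosphodiesterase that breaks down cyclic GMP, and the cyclic GMP-gated channel then closes.

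Of the 11949 entries, 710 (5.94%) rose and 1822 (15.2%) fell, with 225 and 548 of them past 2-fold and 32 and 34 past 4-fold. The median log2 ratio over all entries compared was -0.15, so the typical entry was slightly lower at P5. This imbalance depended on the scaling. After quantile normalization over the 8 libraries, which moved the median by 0.14, 1057 entries rose and 1130 fell, and the share of rises among all calls went from 28.0% to 48.3%. The entries that rose took 6.69% of the summed FPKM at P2 and 14.04% at P5, and those that fell took 12.7% and 6.71%. In the ratios of the most weakly expressed entries, which move in steps worth 1 read, the P2 library was 1.45 times as deep as the P5 library. At the threshold itself, Fam86 (7.199 to 11.3) was just outside the rises and 4632415K11Rik, at 8.97 at P2, just inside, and Rbbp7 (66.6 to 44.0) was just inside the falls and Pdha1 (33.6 to 22.1) just outside. The counts for gene lists below are to be read against the shares of 5.94% and 15.2%.

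The other libraries, which played no part in these calls, give the levels of both sets of entries at other ages. The entries that rose had a median FPKM of 7.87 at P2 and 16.5 at P5, and the same entries had a median of 5.76 in whole retina at E18 and 21.8 in Cd73PC at P8. The entries that fell had a median of 9.26 at P2 and 3.97 at P5, against 15.6 at E18 and 2.88 at P8. From P5 to P8 both sets thus kept, in their medians, the direction they had between P2 and P5. The E18 library is unsorted whole retina, so its difference from Cd73PC at P2 mixes age with the sort. In Cd73NC the rising entries had medians of 4.04 at P2 and 8.84 at P5, below those in Cd73PC, and the falling entries 16.2 and 9.31, above those in Cd73PC.

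**Figure D1:**
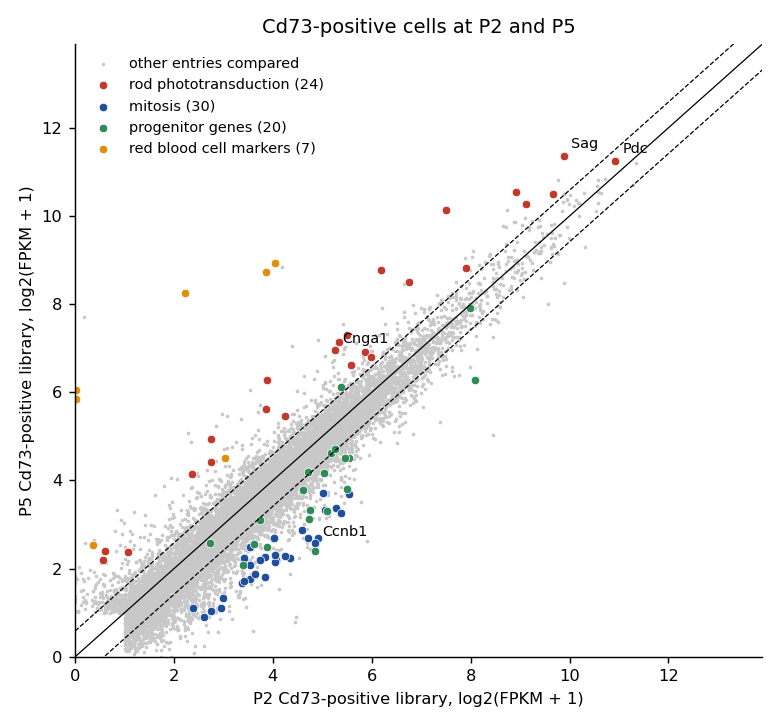
Expression in the P2 (x axis) and P5 (y axis) Cd73-positive libraries, both as log2(FPKM + 1), with 1 point per entry compared. The solid line marks equal values and the dashed lines 1.5-fold. Rod phototransduction genes lie above the upper dashed line except Pdc, all 30 mitosis genes lie below the lower dashed line, and red blood cell markers lie far above.

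Nt5e, the gene of the sort antigen, was at FPKM 97.3 at P2, 131 at P5, and 124 at P8 in Cd73PC, a log2 ratio of 0.42 from P2 to P5 that did not reach 1.5-fold. In Cd73NC it was at 2.43, 31.4, and 9.38 on the same days. The positive fraction was therefore higher at each age, and the negative library of P5 held more Nt5e than those of P2 and P8. Cnga1, the alpha subunit of the rod cyclic GMP-gated channel and the marker given for these cells, rose from 37.1 to 124 in Cd73PC (log2 ratio 1.71) and stood at 253 at P8. In Cd73NC it went from 0.0206 to 6.86. Both libraries thus carried the rod label, with Cnga1 over 10 times as high in the positive as in the negative fraction at either age.

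Phototransduction genes rose nearly as a whole. Of 24 entries compared from a list of 23 genes, 23 rose and 0 fell, and their median log2 ratio was 1.66 against -0.15 over all entries. The lowest ratio was 0.33, and the summed FPKM of the list went from 5680.2 to 12601. In bulk libraries, more cells of a type and more RNA per cell cannot be told apart.

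The 3 subunits of rod transducin started far apart. Gnat1, the alpha subunit, was at 13.7 at P2 and 77.1 at P5 (log2 ratio 2.41). Gnb1, the beta subunit, which many cells use, went from 557 to 1225 (1.14), and Gngt1, the gamma subunit, from 238 to 448 (0.91). The alpha subunit was thus the lowest of the 3 on both days and the one with the largest ratio.

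The phosphodiesterase showed a similar spread of starting levels. Its inhibitory subunit Pde6g rose from 483 to 1492 and its catalytic subunits Pde6b and Pde6a from 107 to 359 and from 5.69 to 20.4. All 3 had log2 ratios between 1.63 and 1.74. Cngb1, the channel's beta subunit, is listed at 2 loci, on chromosomes 8 (44.3 to 156) and 5 (39.2 to 139.5), which can share reads, so its level is uncertain. Both entries gave a log2 ratio of 1.80, close to the 1.71 of Cnga1. Slc24a1, the exchanger that clears calcium from the outer segment, was only at 0.483 at P2 and at 3.60 at P5, and it reached 41.0 at P8.

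Genes that restore the dark state rose as well. The retinal guanylate cyclases Gucy2e and Gucy2f, which remake cyclic GMP, went from 13.5 to 48.3 and from 0.523 to 4.32. Grk1, the kinase that quenches the active receptor, rose from 5.69 to 29.9, and recoverin (Rcvrn), its calcium-bound inhibitor, from 71.5 to 436, with log2 ratios of 2.21 and 2.59. Rod arrestin (Sag), which caps the active receptor, gained more FPKM than any other entry, from 944 to 2642. Rgs9, the subunit that speeds the shutoff of transducin, and its anchor Rgs9bp rose from 46.8 to 97.1 and from 4.13 to 16.8. Phosducin (Pdc), a binding partner of the transducin beta and gamma subunits, was the member that stayed within 1.5-fold. It was already at 1935 at P2, the highest of the list on that day, and was at 2439 at P5. The 5 members not yet named were the chaperones Aipl1 (57.4 to 119.5) and Unc119 (815 to 1446), the cyclase activators Guca1a (18.0 to 43.0) and Guca1b (1.09 to 4.21), and Gnb5, the partner of Rgs9 (62.5 to 109.7).

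**Figure D2:**
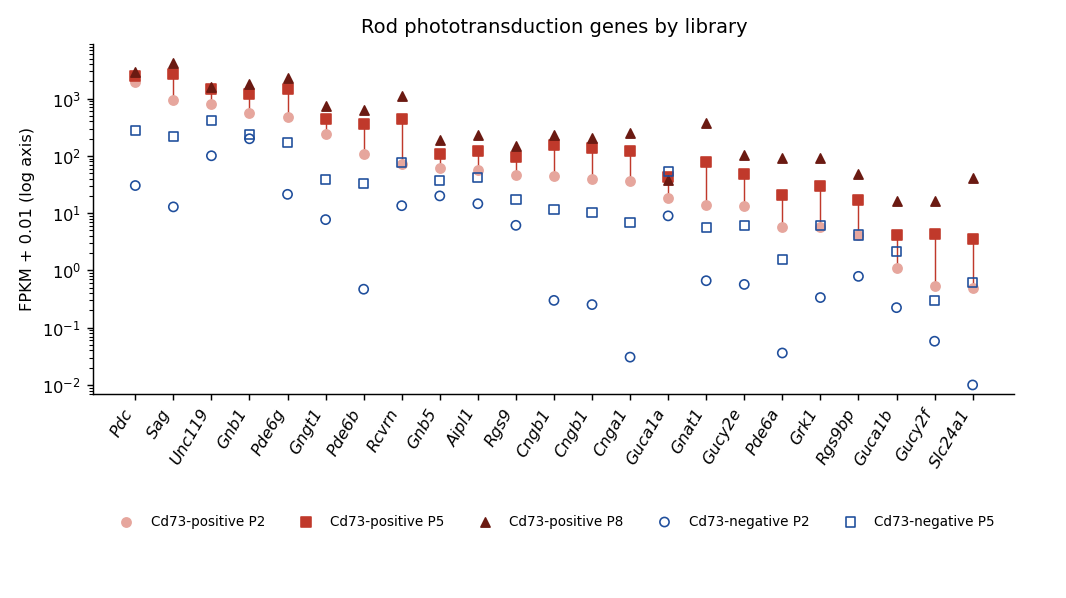
FPKM + 0.01 on a log axis for 23 entries of the rod phototransduction list, ordered by their P2 level in Cd73PC, with Cngb1 plotted for both of its entries. Filled points are Cd73PC at P2, P5, and P8 and open points are Cd73NC at P2 and P5, 1 library each, and the vertical line joins P2 and P5 in Cd73PC. Each line points upwards, it is shortest for Pdc, and the open points lie below the filled points of the same day except for Guca1a at P5.

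Promoter sequences are shown for members that moved together, because short motifs of known photoreceptor and cell cycle factors differed in frequency between the lists. The 250 bases before the transcription start were read from RefSeq (GRCm38.p6, a later build than the mm9 of the expression files), and 16 of the 23 phototransduction genes had an entry. TAATCC, the core bound by the homeodomain proteins Crx and Otx2, was searched on both strands and was present in 9 of these 16 promoters (56.2%). It was present in 6.38% of all 27025 promoters and in 5.12% of those of genes compared. The shares were 8.23% of the 547 promoters of genes that rose and 3.62% of the 1408 of genes that fell. TAATCC was in 4 of 17 outer segment promoters (23.5%), with Guca1a and Cngb1 in both lists. For photoreceptor transcription factors, a list that mostly stayed within 1.5-fold, it was in 4 of 16 promoters (25%). It was also in 2 of 13 promoters of progenitor genes (15.4%), a list that mostly fell. TGCTGA, a part of the site that Maf proteins such as Nrl bind, was in 4 of the 16 (25%) and in 15.8% of all promoters. In the outer segment list it was in 2 of 17 (11.8%), and in the photoreceptor factor list in 4 of 16 (25%). The following 3 promoters are from channel and arrestin genes that rose, with TAATCC and TGCTGA or their reverse complements in capitals.
Cnga1, chr5:72642753-72643002, minus strand: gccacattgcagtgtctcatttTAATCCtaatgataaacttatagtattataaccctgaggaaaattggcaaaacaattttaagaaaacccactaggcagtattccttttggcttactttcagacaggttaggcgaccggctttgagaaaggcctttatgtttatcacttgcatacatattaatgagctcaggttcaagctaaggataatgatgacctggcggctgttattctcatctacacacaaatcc
Sag, chr1:87803430-87803679, plus strand: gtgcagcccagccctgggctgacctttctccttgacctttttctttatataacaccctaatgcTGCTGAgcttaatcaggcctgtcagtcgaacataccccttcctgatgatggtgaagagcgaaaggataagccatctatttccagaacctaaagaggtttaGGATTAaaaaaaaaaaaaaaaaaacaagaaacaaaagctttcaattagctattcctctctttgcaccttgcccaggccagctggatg
Cngb1, chr8:95306586-95306835, minus strand: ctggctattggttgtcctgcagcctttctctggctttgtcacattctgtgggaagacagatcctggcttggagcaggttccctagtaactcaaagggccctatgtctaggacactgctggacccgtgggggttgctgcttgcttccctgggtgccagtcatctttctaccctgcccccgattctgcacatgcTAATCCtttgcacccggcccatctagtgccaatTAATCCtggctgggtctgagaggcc
Cnga1 has a single TAATCC, 228 to 223 bases before the start. Sag has the reverse complement of TAATCC 87 to 82 bases before the start and a TGCTGA at 187 to 182. Cngb1 has TAATCC at 58 to 53 and again at 25 to 20 bases before the start. A match of letters is a description of the sequence and was not tested as a binding site.

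Genes of the outer segment rose with the cascade. Of 25 entries, 20 rose and 1 fell, with a median log2 ratio of 1.36, and 3 of these entries (Guca1a and both of Cngb1) belong to the phototransduction list too. Peripherin (Prph2) and Rom1, the tetraspanins that shape the disc rims, were among the 5 largest gains in FPKM, from 424 to 1124 and from 873 to 1811. Abca4 and Rdh12, which handle retinaldehyde, rose from 7.45 to 43.1 and from 29.2 to 144. Rp1, a microtubule protein of the axoneme, rose from 113 to 252. The potassium channel subunit Kcnv2 went from 36.1 to 94.1. Of the entries that did not rise, Rpgr fell from 11.6 to 7.14 (log2 ratio -0.63, near the threshold), and Mak (63.7 and 60.4), Cep290 (6.00 and 7.70), and Rpgrip1 (35.9 and 51.5) stayed within 1.5-fold, as did the matrix gene Impg2 (258 and 305).

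Most transcription factors of photoreceptors stayed within 1.5-fold. Of 16 entries, 2 rose, 3 fell, and 11 stayed within 1.5-fold, with a median log2 ratio of 0.30. The number that rose was 1 after quantile normalization, 1 with a filter of FPKM 5, and 5 with the median of all entries centred on 0, where 2 fell. Nrl, the leucine zipper factor that sets rod fate, was at 984 at P2, 1317 at P5, and 1417 at P8. Crx, the homeodomain activator of rods and cones, was at 660.0, 859, and 966. Both were already high at P2 and neither passed 1.5-fold. Nr2e3, a nuclear receptor that represses cone genes in rods, passed the threshold narrowly, from 949.6 to 1434 (log2 ratio 0.59). Esrrb, an estrogen related receptor expressed in rods, rose from 0.144 to 4.96 and was at 26.3 at P8, while it was at 0.0915 and 0.231 in Cd73NC. Esrrb passed the filter only through P5, so it could only be higher there. The 3 entries that fell were factors of newly born photoreceptor and bipolar cells. Otx2 went from 777 to 492, Prdm1, which favours photoreceptor over bipolar fate, from 108 to 51.6, and Neurod4, a basic helix-loop-helix factor, from 349 to 152. In Cd73NC over the same days Otx2 went from 349 to 851 and Neurod4 from 252 to 684, past 1.5-fold upwards.

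Of 23 ribbon synapse entries, 8 rose and 0 fell, with a median of 0.44. Slc17a7, the vesicular glutamate transporter, rose from 72.7 to 239. Cacna1f, the pore of the presynaptic calcium channel, and Cabp4, its calcium binding partner, rose from 2.91 to 10.5 and from 0.932 to 5.86. Cplx4, a complexin of ribbon synapses, rose from 13.6 to 48.4, and Elfn1, an adhesion protein of the rod to bipolar contact, from 26.2 to 55.5. The other rises were Stx3 and Vamp2, which act in vesicle fusion (90.3 to 172 and 107 to 176), and the calcium channel subunit Cacna2d4 (26.7 to 43.3). Among the entries within 1.5-fold were Syp (582 and 857), Snap25 (361 and 379), Ctbp2, which encodes the ribbon protein Ribeye (85.5 and 98.3), and Bsn (1.94 and 2.99).

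Cone genes did not move as a group. Of 10 entries, 1 rose and 2 fell, and the median was -0.05, a value whose sign turned under upper quartile scaling and with the median of all entries centred on 0. S-opsin (Opn1sw) was at 86.2 at P2 and 79.6 at P5, and M-opsin (Opn1mw) was under FPKM 1 on both days and was not compared. Cone arrestin (Arr3) rose from 0.886 to 4.77, and Cngb3, a cone channel subunit, fell from 16.8 to 10.3. Arr3 passed the filter only through P5, and with a filter of FPKM 5, 0 cone entries rose. The inhibitory subunit of the cone phosphodiesterase, Pde6h, had one of the 15 largest falls, from 19.4 at P2 to 2.67 at P5, and was at 34.8 at P8. In Cd73NC its values were 15.7, 3.08, and 22.2, so both fractions were low on the same day. Gngt2, the cone transducin gamma subunit, was at 1259.8 and 1460.4.

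Of 77 entries of the respiratory chain and ATP synthase, 13 rose and 1 fell, 59 had a log2 ratio above 0, and the median was 0.34. In Cd73NC the median of the same list was -0.25, with 1 of 76 past the threshold upwards. Cox6a1 and Cox8a, subunits of cytochrome oxidase, rose from 403 to 879 and from 544 to 993, Atp5g1, a subunit of the ATP synthase ring, from 99.6 to 209, and Ndufb8 of complex I from 258 to 538. The muscle and heart isoform Cox8b was listed at 0 at P2 and was at 2.21 at P5. Of 21 glycolysis and lactate genes, 3 rose and 0 fell. Hk1, the hexokinase that traps glucose, went from 21.3 to 63.9 and Aldoa from 473 to 928, while Ldha, at 1683 and 1822, and Pkm2, at 1113 and 1305, stayed within 1.5-fold at high levels. Of 15 fatty acid and phospholipid genes, 0 rose and 3 fell. That share of falls is near the 15.2% of all entries, and the list's median of -0.10 turned sign with the median centred on 0. The falls were the widely used enzymes Elovl5 (15.8 to 6.99), Elovl6 (5.77 to 2.88), and Fads1 (37.0 to 22.6). Elovl4, which makes very long fatty acids of photoreceptor discs, was at 248 and 302.

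Mitotic genes fell without exception. All 30 entries of the list fell, with log2 ratios from -2.26 to -1.03 and a median of -1.73. Ccnb1 and Ccnb2, the mitotic cyclins, went from 27.7 to 4.99 and from 19.3 to 3.72. Birc5, a subunit of the chromosomal passenger complex, went from 29.0 to 5.47, and Top2a, the topoisomerase that untangles sister chromatids, from 40.4 to 8.66. Mki67, the proliferation antigen Ki67, had the smallest change, from 10.5 to 4.64, and was at 0.460 at P8. DNA replication genes followed, with 27 of 30 lower and 0 higher (median -1.07). The helicase subunit Mcm6 fell from 29.4 to 7.77, ribonucleotide reductase Rrm2 from 16.8 to 4.44, and the sliding clamp Pcna from 134 to 66.0. Fen1, Rfc5, and Ccne2 were lower by less than 1.5-fold.

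The Cd73NC libraries moved by nearly the same factor. The summed FPKM of the mitosis list was 531 at P2 and 134 at P5 in Cd73PC, a ratio of 3.95, and 1546 and 389.6 in Cd73NC, a ratio of 3.97. The level in Cd73PC was thus 34.3% of that in Cd73NC at P2 and 34.5% at P5. For DNA replication genes the sums were 533 and 237 in Cd73PC and 1744 and 446 in Cd73NC, and the level in Cd73PC went from 30.6% to 53.2% of that in Cd73NC. Whether the transcripts in Cd73PC came from dividing cells inside the gate or from other cells carried through the sort was not tested.

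Motifs of cell cycle factors were counted in the promoters of the mitosis and replication lists. Of 24 mitosis promoters in RefSeq, 20 (83.3%) had CCAAT, the box bound by NF-Y, and 11 (45.8%) had TTTGAA, the cell cycle homology region, on either strand, while 0 had TAATCC. The shares over all promoters were 34.5% for CCAAT and 16.3% for TTTGAA, and over those of genes compared 37.6% and 9.99%. The CCAAT box was also in 13 of 24 replication promoters and in 5 of 16 phototransduction promoters, while TTTGAA was in 3 and 2 of these. The 5 with CCAAT included Cnga1 and Cngb1, where it is not in capitals above. CCAAT was as frequent in 9 of 17 outer segment promoters (52.9%), a list that mostly rose. It was also in 8 of 16 promoters of photoreceptor factors (50%) and 8 of 13 of progenitor genes (61.5%). Of 24 replication promoters, 9 (37.5%) had TTCCCGC or TTGGCGC, which are E2F sites. The shares were 5.71% of all promoters, 10.6% of those of genes compared, and 14.3% of those of genes that fell. TTGGCGC overlaps CCAAT where the reverse complement ATTGG precedes CGC. The promoters of Top2a and Ccnb2 are shown with CCAAT and TTTGAA in capitals, and that of Mcm6 with TTGGCGC in capitals, reverse complements included.
Top2a, chr11:99024190-99024439, minus strand: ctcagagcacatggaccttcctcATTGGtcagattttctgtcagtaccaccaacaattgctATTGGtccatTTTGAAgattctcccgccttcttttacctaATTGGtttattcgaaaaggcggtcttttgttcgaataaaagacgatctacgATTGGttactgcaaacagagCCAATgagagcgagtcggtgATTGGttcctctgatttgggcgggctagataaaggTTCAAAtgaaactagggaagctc
Ccnb2, chr9:70421555-70421804, minus strand: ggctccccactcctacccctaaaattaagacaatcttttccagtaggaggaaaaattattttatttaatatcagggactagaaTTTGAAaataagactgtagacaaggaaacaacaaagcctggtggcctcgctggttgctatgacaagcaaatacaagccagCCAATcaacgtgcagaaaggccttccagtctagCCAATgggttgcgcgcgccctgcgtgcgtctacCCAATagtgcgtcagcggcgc
Mcm6, chr1:128359706-128359955, minus strand: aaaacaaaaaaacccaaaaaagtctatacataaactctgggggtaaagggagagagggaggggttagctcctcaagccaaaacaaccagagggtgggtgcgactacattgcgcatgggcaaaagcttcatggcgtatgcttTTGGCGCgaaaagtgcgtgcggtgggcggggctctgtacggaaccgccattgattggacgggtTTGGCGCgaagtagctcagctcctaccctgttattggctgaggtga
Top2a has CCAAT boxes at 6 positions, the nearest 58 to 54 bases before the start, with TTTGAA at 179 to 174 and its reverse complement at 23 to 18. Ccnb2 has 3 CCAAT boxes, which begin 87, 54, and 21 bases before the start, and TTTGAA at 167 to 162. Mcm6 has TTGGCGC at 109 to 103 and at 46 to 40 bases before the start. All of these genes fell and none holds TAATCC in this window.

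Progenitor genes fell less evenly. Of 20 entries of transcription factors and signals of retinal progenitors, 14 fell and 1 rose, with a median of -0.99. Fgf15, a growth factor of embryonic progenitors, had the largest fall of the list, from 27.9 to 4.25, after 299 in whole retina at E18. Cyclin D1 (Ccnd1), the main D-type cyclin of the retina, went from 272 to 76.3, Pax6 from 44.3 to 13.0, and Sox2 from 26.04 to 9.03. The Notch targets differed, with Hes1 from 13.7 to 4.66 past the threshold and Hes5 at 25.2 and 17.3 within it. Rax, which stays on in photoreceptors, was at 254 and 241. The summed level of the list in Cd73PC was 34.5% of that in Cd73NC at P2 and 35.2% at P5.

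Genes of cells leaving the cycle and of early-born neurons fell too. Of 20 neurogenic entries, 13 fell and 0 rose. Atoh7, the factor required for ganglion cells, had the largest fall of all entries compared, from 20.9 to 0.719, and in Cd73NC it went from 116 to 3.96. Foxn4, which specifies amacrine and horizontal cells, fell from 7.15 to 1.97, and Dcx, a microtubule protein of young neurons, from 2.12 to 0.109. Insm1 (177 and 147) and Btg2 (175 and 146) stayed high and within 1.5-fold. Of 14 amacrine entries, 13 fell and 0 rose. Tcfap2b and Tcfap2a, AP-2 factors of amacrine cells, went from 21.1 to 0.879 and from 11.2 to 0.491, and Ptf1a from 5.30 to 0.636. Like Atoh7 and Dcx, these were below FPKM 1 at P5, so they passed the filter only through P2 and could only be lower at P5. With a filter of FPKM 5, 8 amacrine entries fell and 0 rose. Slc6a9, a glycine transporter, was at 47.9 and 72.3. Of 10 ganglion cell entries, 7 fell and 1 rose, led by the growth-associated genes Stmn2 (16.3 to 1.88) and Gap43 (9.51 to 2.54). With a filter of FPKM 5, 3 ganglion cell entries fell and 1 rose. The entry that rose was the neurofilament gene Nefh, from 1.21 to 5.90. The defining factors Pou4f1, Pou4f2, and Pou4f3 were below FPKM 1 on both days.

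**Figure D3:**
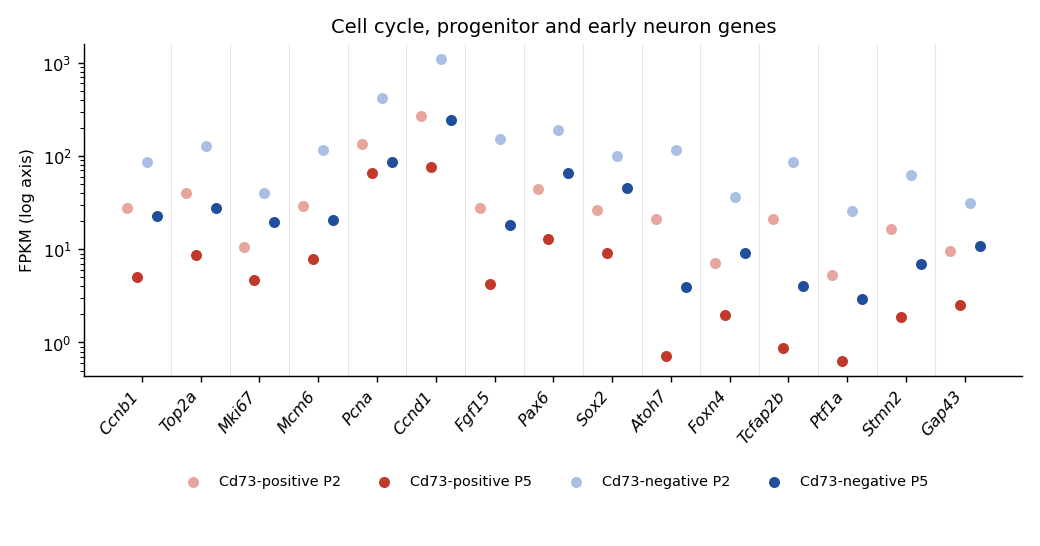
FPKM on a log axis for 15 cell cycle, progenitor, and early neuron genes in the Cd73-positive and Cd73-negative libraries of P2 and P5, 1 library per point. In each gene both P5 points lie below the P2 points of the same fraction, and the Cd73-positive points lie below the Cd73-negative points of the same day.

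Several of the largest falls were in genes outside these lists. Crabp1, a retinoic acid binding protein of amacrine and ganglion cells, went from 58.7 to 5.18 in Cd73PC and from 270.4 to 12.7 in Cd73NC. H19, an imprinted long noncoding RNA, went from 349 to 31.6 in Cd73PC, the third largest fall, and was at 51.7 and 61.6 in Cd73NC. Measured in FPKM rather than as a ratio, the 5 largest losses were Tpt1p (2502 to 1677), Ptma (1265 to 629.6), Fabp7 (951 to 354), Stmn1 (755 to 257), and Tmsb4x (1476 to 1106). Fabp7, a fatty acid binding protein of progenitors and glia, was at 458 and 625 in Cd73NC. Tpt1p and Tmsb4x did not reach 1.5-fold. The other large falls by ratio, each from under 27 to under 5, were Syt6 (5.07 to 0.183), Ccdc99 (9.91 to 1.18), Lrrn3 (8.05 to 0.815), AI593442 (4.29 to 0.0657), Krt73 (6.36 to 0.486), Fam100b (26.02 to 4.46), and 1190002F15Rik (22.1 to 3.75). All 7 were lower at P5 than at P2 in Cd73NC too.

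Among the rises outside the lists, Ppap2c, a lipid phosphate phosphatase, went from 3.89 to 32.5 and then 88.9 at P8, while in Cd73NC it was at 2.57 and 3.91. Osbp2, an oxysterol binding protein, went from 6.83 to 44.3, and Dhrs3, a retinaldehyde reductase, from 4.08 to 28.2. Tmem229b went from 10.7 to 65.1. Igfbp7, an insulin-like growth factor binding protein of vessels, went from 0.805 to 9.003 and was at 4.72 at P8, so it alone of these 5 was lower at P8 than at P5.

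The largest rises of all were not rod genes. Globins and other red blood cell markers went from a summed FPKM of 40.2 at P2 to 1363 at P5 in Cd73PC and from 133 to 2009 in Cd73NC, with all 7 entries compared higher in each. Hbb-b2 went from 3.68 to 303. The entries of Hba-a1 and Hba-a2 at 2 loci each, and those of Beta-s and Hbb-b2, are near-identical copies that can share reads, so their single values are uncertain. Beta-s, at 17.1 at P2 and 459 at P5 in Cd73PC, is not in the list, so the sums and shares leave it out. The listed markers made up 0.0105% of the summed FPKM of Cd73PC at P2 and 0.362% at P5. Of 9 endothelial and pericyte entries 8 rose, among them Rgs5 (0.893 to 7.60) and Cdh5 (0.0217 to 2.41). The median FPKM of the 9 was 0.298 at P2, so most passed the filter only through P5 and could only be higher there. With a filter of FPKM 5, 2 rose. The list's summed FPKM was 39.2 and 53.4, and Kdr, a receptor of vascular endothelial growth factor, was at 29.7 and 22.1. The single entry with the largest ratio was Atp6v0c-ps2, annotated as a pseudogene of Atp6v0c and listed at nearly the same coordinates, at 0.126 at P2 and 208 at P5. Atp6v0c itself, a subunit of the vacuolar proton pump, fell from 386 to 243, so the division of reads between them is uncertain.

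Markers of other retinal cells were present in both Cd73PC libraries. For Müller glia 5 of 14 entries rose and 2 fell, with sums of 798 at P2 and 823 at P5 against 1908 and 2786 in Cd73NC. For bipolar cells 4 of 14 rose and 4 fell. The rises were the factors Bhlhe23 (listed at 0, then 2.56), Isl1 (0.776 to 4.31), and Vsx1 (0.0122 to 1.06) and the calcium binding protein Scgn (0.237 to 2.90). All 4 were below FPKM 1 at P2, so they passed the filter only through P5. The falls were Gng13 (23.3 to 10.2), Pcp2 (25.9 to 11.8), Cabp5 (5.66 to 2.96), and Irx5 (6.28 to 3.17). The first 3 of these falls were of genes that were higher in Cd73PC than in Cd73NC at P2. Of 11 microglia entries 1 fell and 0 rose, with sums of 76.7 and 63.2 in Cd73PC and 12.9 and 99.1 in Cd73NC. Of 7 pigment epithelium entries 1 rose and 1 fell, with sums of 93.6 and 87.3 in Cd73PC and 3.62 and 58.4 in Cd73NC. Rpe65, which defines the pigment epithelium, was listed at 0 at P2 and was at 0.253 at P5. Of 4 horizontal cell entries 2 fell, Tcfap2b and Onecut1 (1.61 to 0.403). Both were below FPKM 1 at P5, so they passed the filter only through P2. Of 2 lens entries 2 rose, Cryab (1.001 to 3.62) and Crybb1 (0.367 to 1.15), the latter past the filter only through P5. The part of these cells, of blood, and of vessels in the changes above was not tested.

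Chromatin genes leaned downwards. Of 29 entries, 13 fell and 2 rose, with a median of -0.49. Hmgb2, a chromatin protein of dividing cells, fell from 113 to 31.9, and Hells, a helicase that aids DNA methylation, from 6.77 to 1.47. The H3K27 methyltransferase Ezh2 fell from 49.1 to 21.5 and its partner Suz12 from 54.0 to 31.1, while Eed (28.6 and 19.1) and Ezh1 (10.3 and 10.9) stayed within 1.5-fold. Kdm6b, an H3K27 demethylase, rose from 22.5 to 36.9 and Jarid2 from 31.2 to 51.5. Lmnb1, of the nuclear lamina, fell from 96.2 to 45.3, and Lbr, a tether of heterochromatin whose absence accompanies the inverted nuclei of mouse rods, from 21.2 to 11.5.

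Smaller shifts were seen in 4 further lists. Of 19 neural RNA binding genes 8 fell and 1 rose, with Elavl3 from 7.74 to 2.20, Ptbp2 from 73.9 to 36.5, and Celf3 from 48.6 up to 88.4. Of 80 ribosomal protein entries 9 fell and 1 rose, with a median of -0.23, close to the -0.15 of all entries. Of 15 apoptosis genes 3 fell and 0 rose, near the shares over all entries, with Bbc3 (5.71 to 2.64) and Apaf1 (6.57 to 3.55) among the falls. Of 12 immediate early genes, which respond to tissue handling among other stimuli, 4 fell and 0 rose, led by Fos (10.5 to 3.39) and Dusp1 (14.4 to 7.33).

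The same calls were made between the Cd73NC libraries of P2 and P5, which share no library with the Cd73PC comparison. The paper states, however, that both fractions were purified from the same retinas, so the 2 comparisons are not independent. There 1635 of 12457 entries (13.1%) rose and 2038 (16.4%) fell. Among the 11677 entries compared in both fractions, 388 rose in both, which was 60.4% of the 642 that rose in Cd73PC and 25.6% of the 1514 that rose in Cd73NC. Falls were shared by 968 entries, 54.2% of the 1786 in Cd73PC and 53.9% of the 1795 in Cd73NC. Opposite calls were made for 15 entries that rose in Cd73PC and fell in Cd73NC, 2.34% of the 642. They were also made for 119 that fell in Cd73PC and rose in Cd73NC, 6.66% of the 1786. Both shares were below the 16.4% that fell and the 13.1% that rose among all entries compared in Cd73NC. Rod phototransduction genes had the larger median in Cd73NC, 2.31 over 22 entries, but from far lower levels. Sag, for example, went from 12.9 to 221 there, and the list's sum in Cd73NC at P5, 1739, was still below the 5680.2 of Cd73PC at P2. Whether the difference between the fractions exceeds their spread could not be tested with 1 library each.

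**Figure D4:**
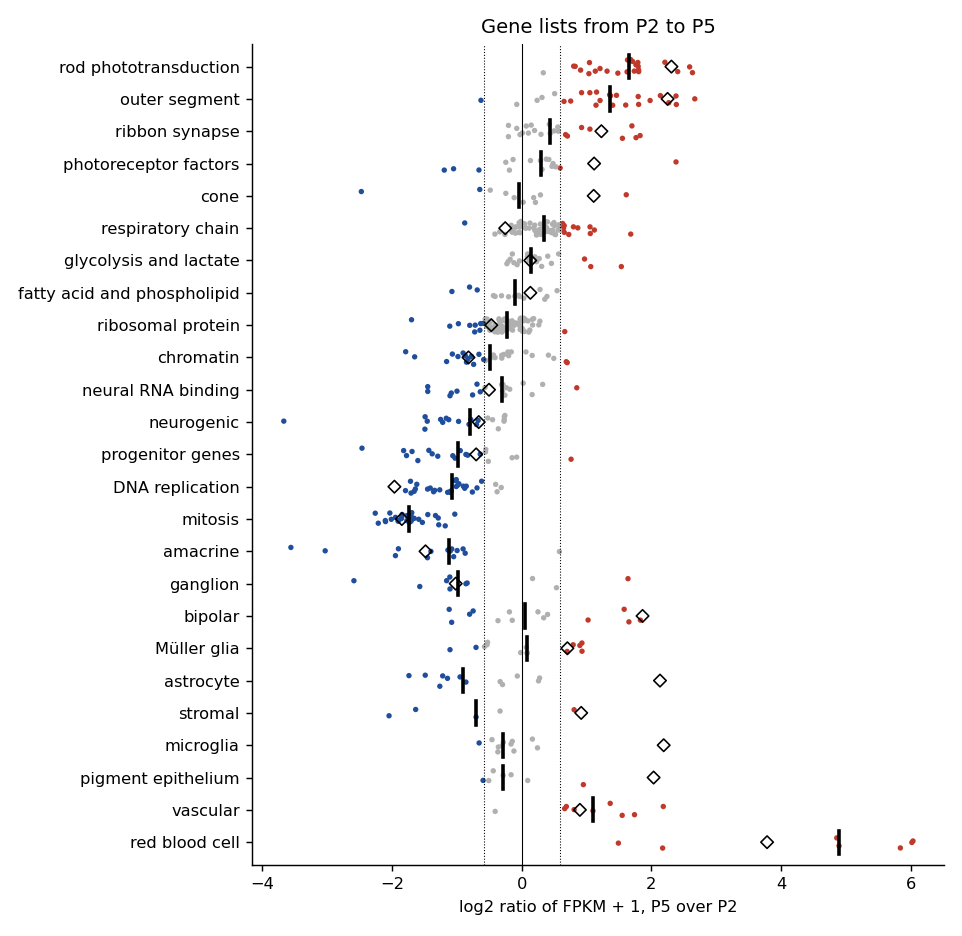
Log2 ratios of FPKM + 1, P5 over P2, for the compared members of 25 gene lists in Cd73PC, with 1 dot per entry (red, rose; blue, fell; grey, within 1.5-fold) and the dotted lines at 1.5-fold. Black bars mark the median in Cd73PC and open diamonds the median in Cd73NC. Phototransduction and outer segment dots lie mostly to the right, mitosis, replication, and progenitor dots mostly to the left, and the bars and diamonds lie on opposite sides of 0 for respiratory chain, astrocyte, stromal, microglia, and pigment epithelium, cone, and fatty acid lists.

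**Figure D5:**
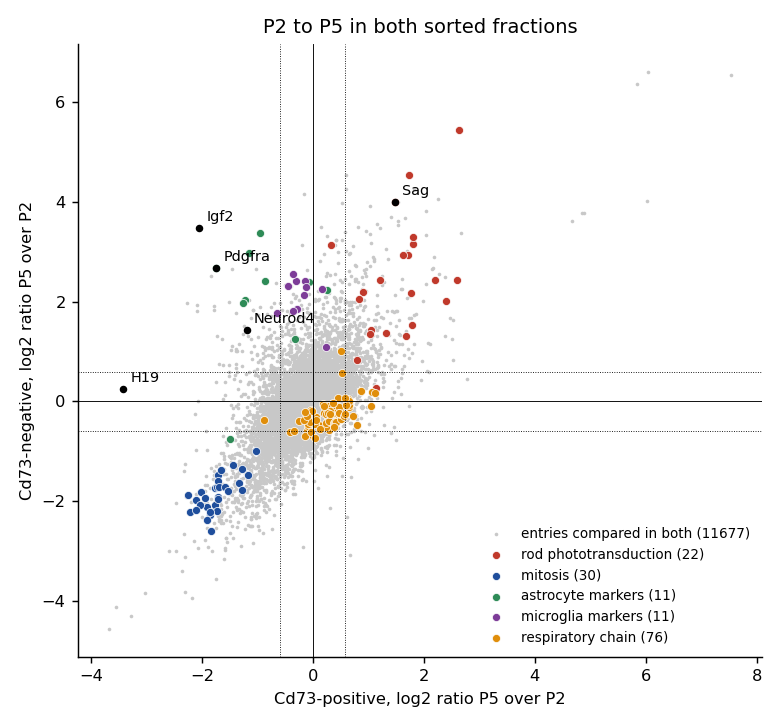
Log2 ratio of FPKM + 1, P5 over P2, in Cd73PC (x axis) and Cd73NC (y axis) for the 11677 entries compared in both, with 5 lists in colour and 5 genes named. Mitosis genes are in the lower left and rod phototransduction genes in the upper right, while Igf2, Pdgfra, and Neurod4 are in the upper left, lower at P5 in Cd73PC and higher in Cd73NC.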

How the data were processed

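RNA of 8 mouse retina libraries was sequenced by the authors (36-base single reads), aligned to mm9 with TopHat2 2.0.8b, and summarised with Cufflinks 2.1.1, per the labels and the study's methods. The deposited values are FPKM per gene entry. Tables were joined on gene identifier and locus, since their row order differed, and failed estimates were taken as missing. Small RNAs were left out by symbol, as the authors' own list is not given in the sources used here, and log2 ratios used a pseudocount of 1. The absolute depth is unknown, so no counting interval is given. Named genes were the 15 largest rises and falls by ratio, the 5 largest gains and losses in FPKM, Nt5e, Cnga1, and in each list up to 4 per direction and the defining members, and other list members were named after their values were seen. Some named genes are not reported here. Members and lists were chosen with earlier results of these data known, and the astrocyte and stromal lists after these values were seen. The scripts (Python 3.11.15, numpy 2.4.6, pandas 2.3.3, matplotlib 3.10.9) were tested on simulated data. Alternatives were other pseudocounts, thresholds, filters, scalings, summed symbols, and non-overlapping Cufflinks bounds.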

Additional observations from a re-analysis of the deposited data

Results flagged for a closer look

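Opposite changes past 1.5-fold from P2 to P5 in Cd73PC and Cd73NC were found for 15 of the 642 entries that rose in Cd73PC (2.34%). They were also found for 119 of the 1786 that fell (6.66%). Among all entries compared in Cd73NC, 16.4% fell and 13.1% rose. Given here are the 20 entries with opposite changes that belong to a gene list or to the named genes and are reported. The 2 lists whose medians did the same are given too. With 1 library per group the difference was not tested for any of them, and all values below are the log2 ratio in Cd73PC minus that in Cd73NC. The lists were the astrocyte markers (-3.04) and the stromal markers (-1.62), both written after these values were seen. The stromal medians cover 5 entries in Cd73PC and 6 in Cd73NC.

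Of the astrocyte list, Pdgfra (-4.41), Mlc1 (-4.34), Bcan (-4.12), S100b (-3.28), and Pax2 (-3.25) fell in Cd73PC and rose in Cd73NC. Igf2 (-5.52) and Mfap4 (-2.89) of the stromal list did the same, as did the bipolar genes Pcp2 (-2.92), Gng13 (-2.80), and Cabp5 (-2.63) and the photoreceptor and bipolar factors Neurod4 (-2.63) and Otx2 (-1.94). The remaining falls in Cd73PC against rises in Cd73NC were Tyrp1 (-2.57), P2ry12 (-2.43), Fos (-2.14), Cyr61 (-1.72), Cngb3 (-1.67), and Junb (-1.55). Rps27 (3.75) and Cldn5 (2.21) rose in Cd73PC and fell in Cd73NC. Ribosomal protein genes such as Rps27 have near-identical processed copies, so its values are uncertain.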

How the results depend on the processing

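A 2-fold threshold gave 225 rises and 548 falls in place of 710 and 1822, and a filter of FPKM 5 gave 1212 falls. Quantile normalization gave 1130 falls, and centring the median on 0, added after seeing the data, gave 1159 rises. The share of rises among calls was 28.0% as deposited, 34.7% after upper quartile scaling, and 48.3% and 48.1% after these last 2 scalings, so the excess of falls depends on the scaling. The 8 other alternatives kept both counts within 1.5 times. Among them, the Cufflinks bounds hold no replicate spread. For some entries they exclude the deposited value itself, as for Sag in Cd73PC at P2 (944, with bounds of 825 and 850). With a pseudocount of 0.1 the median log2 ratios of lists with low FPKM moved outwards, in Cd73PC to -1.89 (amacrine), -1.82 (ganglion), 2.65 (vascular), and 1.59 (lens), and in Cd73NC to 2.97 (rod phototransduction), 2.61 (bipolar), 2.21 (vascular), 2.85 (microglia), 3.46 (pigment epithelium), 4.57 (lens), and 3.44 (astrocyte). A filter of FPKM 5 moved the bipolar median in Cd73PC to -0.78 and the stromal median to -1.84 and left no lens entry. The number of list members that rose or fell in Cd73PC moved by over 1.5 times for 27 such counts at 2-fold, for 13 each after quantile normalization and median centring, for 11 at FPKM 5, for 5 after upper quartile scaling, and for 4 with a pseudocount of 0.1. Of the named genes, the largest rises, falls, gains, and losses, Nt5e, and Cnga1 (41 entries) were rerun with a pseudocount of 0.1, upper quartile scaling, and quantile normalization. None of them past 1.5-fold changed direction, but with a pseudocount of 0.1 the ratios of 12 moved by at least 1.5-fold. Other genes named from the lists were not rerun singly. The small medians of the cone, fatty acid, and horizontal cell lists turned sign under some alternatives. No paired analysis was possible because each group has 1 library, and for the same reason no library could be left out. Weakly expressed genes are the least certain, as the absolute depth is unknown and the P2 library was 1.45 times as deep as the P5 library.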

Other observations

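Astrocyte markers, a list written after the values were seen, were higher in Cd73PC than in Cd73NC at P2 and lower at P5. Their summed FPKM was 109 at P2 and 75.3 at P5 in Cd73PC and 66.0 and 156 in Cd73NC. This switch was not particular to astrocyte markers. As a share of the Cd73NC sum, microglia markers in Cd73PC went from 596% to 63.7% and stromal markers from 506% to 37.4%. Lens markers went from 167% to 41.9% and bipolar markers from 137% to 36.9%. The Müller glia, amacrine, ganglion, horizontal, vascular, and red blood cell sums were lower in Cd73PC on both days. Of 12 entries compared in Cd73PC 7 fell and 0 rose, and in Cd73NC 11 of 12 rose. Pdgfra, the growth factor receptor of retinal astrocytes, was at 15.4, 3.91, and 4.42 in Cd73PC at P2, P5, and P8 and at 2.22, 19.6, and 12.4 in Cd73NC. Pax2, a factor of the optic stalk and of astrocytes, was at 3.71 and 0.966 in Cd73PC and at 0.0925 and 3.32 in Cd73NC. Gfap, the defining filament protein, was at 2.52 and 2.36 in Cd73PC and at 0.187 and 5.22 in Cd73NC. Acsbg1 and Aqp4 were below FPKM 1 in all 4 libraries.

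The same exchange was seen for Igf2, an imprinted growth factor of mesenchyme and vessels, at 165 and 39.3 in Cd73PC and 7.92 and 98.5 in Cd73NC. Of other stromal markers, the collagens Col1a1, Col1a2, and Col3a1 and the proteoglycans Dcn and Lum were below FPKM 1 in Cd73PC on both days, and the collagen Col6a1 was at 2.37 and 1.07 in Cd73PC and at 12.9 and 3.40 in Cd73NC. Of the stromal list, also written after the values were seen, 3 of 5 entries fell and 1 rose. Further genes of this kind, named after their values were seen, were Crip1 (54.3 and 10.4 in Cd73PC, 3.63 and 17.2 in Cd73NC), the hypoxia factor Epas1 (20.4 and 6.76, 1.56 and 15.1), and the cyclin Ccnd2 (9.75 and 1.53, 0.239 and 3.34). Ccnd2 differs in this from Ccnd1, which fell in both fractions.

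Genes that rose in Cd73PC and stayed within 1.5-fold in Cd73NC, also named after the values were seen, included Ppargc1b, a coactivator of mitochondrial genes, at 1.67, 6.97, and 13.4 in Cd73PC and 0.197 and 0.384 in Cd73NC at P2 and P5, and Klf9, a hormone-responsive zinc finger factor, at 7.99, 25.9, and 50.8 in Cd73PC and 10.2 and 11.3 in Cd73NC. AAGGTCA, a site that estrogen related receptors such as Esrrb bind, was counted on either strand. It was in 3 of 16 phototransduction, 2 of 17 outer segment, 2 of 18 ribbon synapse, and 5 of 67 respiratory chain promoters. The counts were 1 of 16 for photoreceptor factors, 1 of 24 for replication, 0 of 24 for mitosis, and 0 of 13 for progenitor genes. It was in 4.05% of all promoters and 2.54% of those of genes compared. A part of these receptors in the rises was not tested.

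Genes that rose in Cd73PC and fell in Cd73NC were few. Camk1d, a calcium and calmodulin dependent kinase, was at 1.49 and 5.62 in Cd73PC at P2 and P5 and at 2.68 and 1.36 in Cd73NC. Prkcz, an atypical protein kinase C of cell polarity, was at 3.87 and 8.35 and at 4.24 and 2.44. Ramp3, a partner of the calcitonin receptor family, was at 4.06 and 13.2 and at 4.92 and 2.49. At P8 all 3 were higher in Cd73PC than at P5, with FPKM of 25.1, 12.2, and 27.4. In the opposite direction, the ephrin receptor Epha8 was at 40.6 and 11.5 in Cd73PC and at 21.0 and 53.8 in Cd73NC, and fibronectin (Fn1) at 42.1 and 14.5 and at 16.8 and 35.5. These 5 genes were also named after their values were seen.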
